A study of Mus musculus with 18 samples.

Results

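The genes described here are 2 mitochondrial uncoupling proteins and 8 transcriptional regulators of brown fat: Ucp1, Ucp2, Ppargc1a, Ppargc1b, Prdm16, Zfp516, Klf11, Irf4, Ebf2 and Esrra. They were chosen by name, with each Ensembl identifier matched to its symbol in the GENCODE annotation of mouse genome GRCm38, and all 10 were found among the 48023 genes of the count table. RNA was sequenced from murine brown preadipocytes, a precursor line of brown fat made from the stromal vascular fraction and immortalized with a viral T antigen. The cells received vehicle (Veh) or the growth factor FGF6 for 4, 8 or 24 h, and each of the 6 groups has 3 libraries. All groups share the immortalizing transgene, and the labels do not say whether the 3 libraries of a group came from separate cultures, so p-values measure the spread between these libraries. The question behind the comparison is how FGF6 changes the genes that set thermogenic capacity in a precursor cell.

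UCP1 is the proton carrier of the inner mitochondrial membrane that lets brown adipocytes release the proton gradient as heat. Its gene is known to be activated in brown adipocytes by noradrenaline through cyclic AMP and p38 MAP kinase, with PGC-1α (Ppargc1a) serving as a coactivator for nuclear receptors such as PPARγ and ERRα (Esrra). PRDM16, EBF2, ZFP516, KLF11 and IRF4 are DNA-binding proteins or their partners that take part in brown fat identity or in the thermogenic response. UCP2 is a related carrier of the inner membrane that is made in many tissues and is not known as a heat producer.

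To show the DNA in front of genes whose values took different courses, among the 7 for which promoter sequence was found, the 250 bases before the RefSeq transcription start (GRCm38.p6) are printed for Ucp1, Ppargc1a, Irf4 and Esrra, each 5′ to 3′ on the strand of the gene. Capitals mark matches, on either strand, to the core of the cyclic AMP response element (TGACG) or to the GC box (GGGCGG). The windows are chr8:83290098-83290347 (plus strand) for Ucp1, chr5:51567726-51567975 (minus strand) for Ppargc1a, chr13:30748983-30749232 (plus strand) for Irf4 and chr19:6921809-6922058 (minus strand) for Esrra.
Ucp1: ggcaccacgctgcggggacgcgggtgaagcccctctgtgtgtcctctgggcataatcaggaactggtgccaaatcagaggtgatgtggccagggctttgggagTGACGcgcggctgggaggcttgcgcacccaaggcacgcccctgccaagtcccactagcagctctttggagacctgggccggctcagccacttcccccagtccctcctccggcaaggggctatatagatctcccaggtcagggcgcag
Ppargc1a: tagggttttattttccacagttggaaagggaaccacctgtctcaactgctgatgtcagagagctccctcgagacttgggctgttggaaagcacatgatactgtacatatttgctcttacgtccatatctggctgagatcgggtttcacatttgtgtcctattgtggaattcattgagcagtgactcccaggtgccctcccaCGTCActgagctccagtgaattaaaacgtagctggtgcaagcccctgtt
Irf4: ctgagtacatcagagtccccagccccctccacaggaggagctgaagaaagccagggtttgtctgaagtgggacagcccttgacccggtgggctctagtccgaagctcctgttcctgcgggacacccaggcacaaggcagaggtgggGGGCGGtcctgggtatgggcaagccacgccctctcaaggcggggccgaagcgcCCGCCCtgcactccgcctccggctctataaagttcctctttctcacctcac
Esrra: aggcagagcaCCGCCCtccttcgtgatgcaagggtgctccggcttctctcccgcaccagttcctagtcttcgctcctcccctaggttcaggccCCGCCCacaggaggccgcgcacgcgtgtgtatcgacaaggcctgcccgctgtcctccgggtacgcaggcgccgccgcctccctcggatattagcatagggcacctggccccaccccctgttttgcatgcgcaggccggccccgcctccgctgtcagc
A TGACG core begins 147 bases before the start in Ucp1 and 49 bases before it in Ppargc1a, and a further one begins 62 bases before the start of Ucp2. Promoter sequence was found for 7 of the 10 genes, Ppargc1b, Zfp516 and Ebf2 being the others, and 3 of these 7 windows hold the core, against 17.8% of all 32851 windows of that length. The GC box lies in 5 of the 7 (Ucp2, Prdm16, Klf11, Irf4 and Esrra), against 32.7% of all windows. The full palindrome TGACGTCA, which contains the core, is in 0 of the 7 (1.55% of all). The extended nuclear receptor site bound by ERR proteins (TNAAGGTCA) and the AP-1 site (TGANTCA) are also in 0 of the 7, and in 1.14% and 6.75% of all windows. A match is a description of the letters and not evidence of binding.

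Library totals ranged from 24327816 to 33471980 counts, and 3 counts in a library equalled between 0.0905 and 0.126 CPM. CPM here is the count times 1000000 over the total of the 15071 genes tested, scaled by the trimmed mean of M values (TMM), and values are the mean ± SD of 3 libraries. Among 8 stromal and preadipocyte markers, 7 had more than 3 counts in every library and Dlk1 had 0, and the sum of the list was 1444 to 1489 CPM with vehicle and 842 to 889 CPM with FGF6 at 24 h. At that time 2 of the 7 were called higher, Cd44 (165 to 503 CPM) and Cd34 (16.5 to 43 CPM), and 5 lower, among them Pdgfrb (693 to 134 CPM), Pdgfra (280.5 to 91.5 CPM) and Ly6a (243 to 32.3 CPM). Among 7 mature adipocyte markers, Lep had 0 counts in every library, and Plin1 and Adipoq had 0 in the 3 libraries given FGF6 for 24 h. The sum of that list was 156 to 178 CPM with vehicle and 63.5 to 70.1 CPM with FGF6 at 24 h, most of it Fabp4. Of the 5 skeletal muscle markers, Myog and Myod1 were detected, summing with the rest to 5.04 to 5.67 CPM with vehicle and 1.18 to 1.54 CPM with FGF6 at 24 h. Of the 5 macrophage markers, Adgre1, Ptprc and Itgam did not exceed 3 counts in any library, and the list, mostly Cd68, summed to 14.2 to 15.2 CPM with vehicle and 17.6 to 18.5 CPM with FGF6 at 4 h, and to 6.48 to 7.95 CPM and 3.36 to 3.97 CPM at 24 h. Of the 4 endothelial markers, Cdh5 had at 24 h 0 to 3 counts per library with vehicle and 79 to 114 with FGF6, while Tek had 3 to 8 and 0, Vwf stood at 0.7 ± 0.0931 and 0.702 ± 0.172 CPM, and Pecam1 did not exceed 7 counts in any library. The part of these markers in the results that follow was not tested, and in these bulk samples fewer cells of a type and less RNA per cell cannot be told apart.

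Ucp1 (ENSMUSG00000031710, chromosome 8, 83290352 to 83298452, plus strand) was counted in 1 of the 6 groups. It had 0 counts in 15 libraries, that is in all 9 vehicle libraries and in the 6 FGF6 libraries at 4 and 8 h, which at 3 counts allows up to between 0.0905 and 0.126 CPM in a library. The 3 libraries given FGF6 for 24 h held 17, 19 and 25 counts (0.62, 0.679 and 0.917 CPM), a mean of 0.739 ± 0.158 CPM. No library of this group overlapped any other group. The 61 counts in all have an exact Poisson 95% interval of 46.7 to 78.4, which covers counting error only. The mean was 5.86-fold the floor of 3 counts in the shallowest vehicle library at 24 h, and 5.99-fold that in the shallowest FGF6 library at 8 h. The lowest of the 3 libraries was 4.92-fold the floor of vehicle at 24 h. Ucp1 passed the filter on low counts only through this group, so that its call (adjusted p = 3.34e-06 at 24 h) was in part set by the filter, and the fitted log2 fold change rests on the prior count and is not given as a size.

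**Figure D1:**
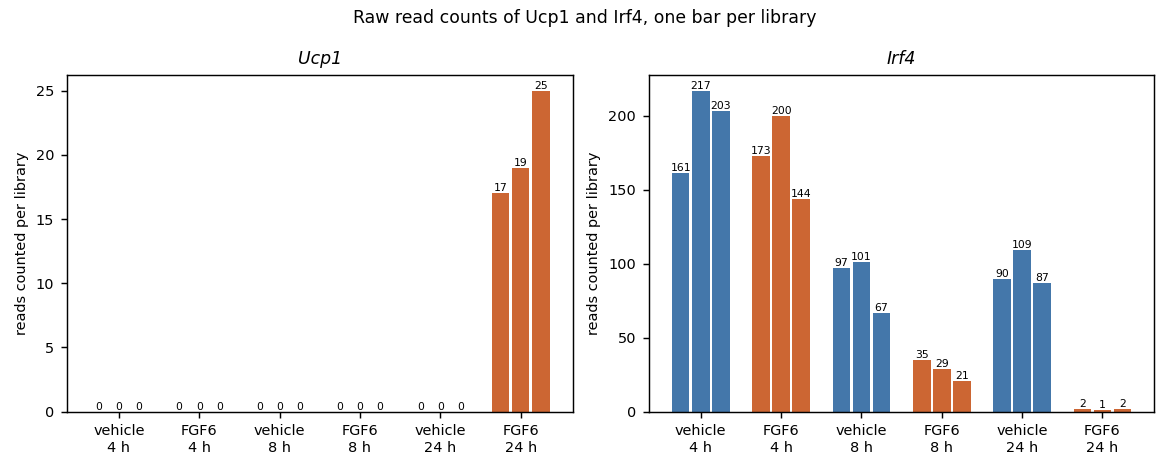
Read counts of Ucp1 (left) and Irf4 (right) in each of the 18 libraries, grouped on the horizontal axis by treatment and time, with the count written on each bar. Ucp1 is at 0 in 15 libraries and at 17, 19 and 25 with FGF6 at 24 h, where Irf4 has 2, 1 and 2 counts.

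Ucp2 (ENSMUSG00000033685, chromosome 7, 100493337 to 100502020) was lower with FGF6 at all 3 times. At 4 h it stood at 247, 233 and 230 CPM with vehicle and at 168, 165 and 164 CPM with FGF6 (log2 fold change -0.52 ± 0.04, SE, adjusted p = 1.03e-11). At 8 h the vehicle libraries held 267, 257 and 255 CPM and the FGF6 libraries 160, 156 and 145 CPM, a fall of Ucp2 by 40.8% (adjusted p = 3.23e-15). At 24 h the values were 272, 265 and 265 CPM against 197, 191 and 207 CPM, and Ucp2 fell by 25.9% (adjusted p = 1.45e-10). The groups did not overlap at any time. The effect at 8 h lay below that at 4 h by a log2 difference of -0.24 ± 0.05 (adjusted p = 0.00132), and the effect at 24 h lay above that at 8 h by 0.32 ± 0.05 (adjusted p = 2.18e-05). The change of Ucp2 was thus largest at 8 h and smaller, in the same direction, at 24 h. Its exons share 305 bases with Dnajb13 on the other strand, and whether counting used strand is not given in the sources used here.

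**Figure D2:**
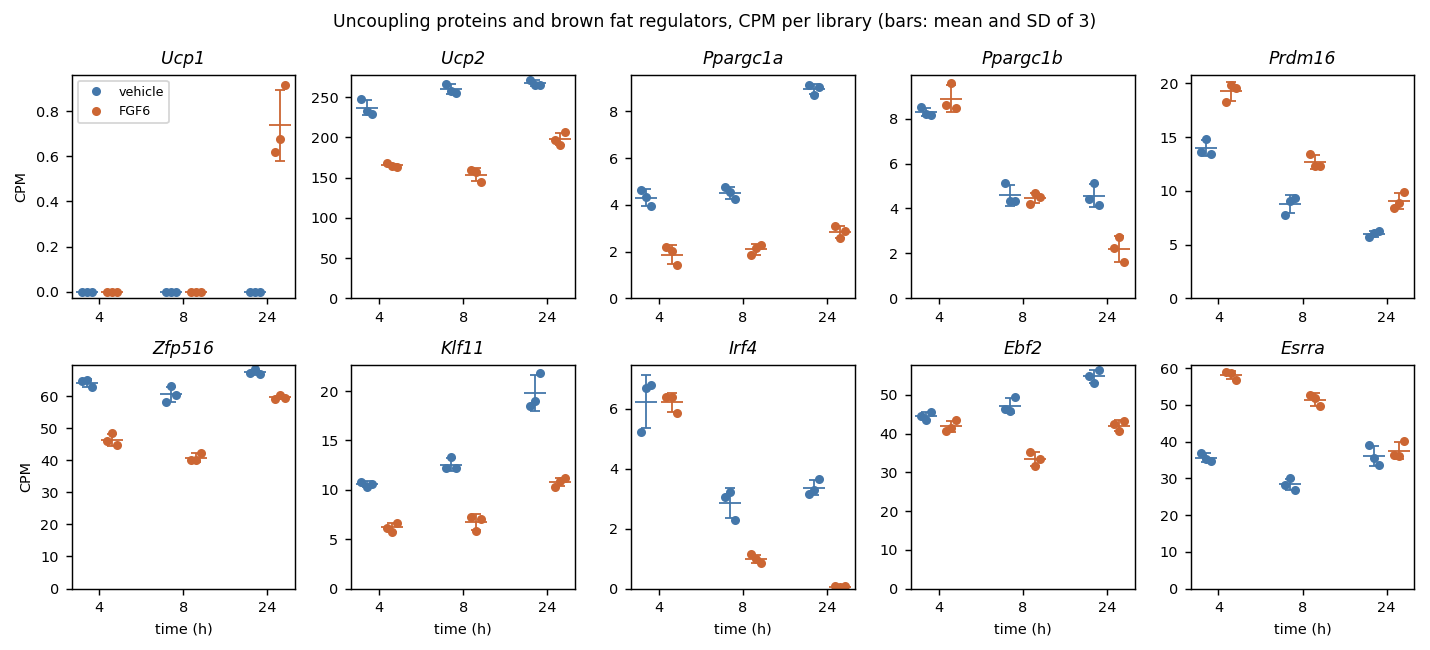
CPM (vertical axis, from 0) of each of the 10 genes in each library at 4, 8 and 24 h, with vehicle in blue and FGF6 in orange, and with the mean and SD of the 3 libraries as bars. The FGF6 points of Ucp2, Ppargc1a, Zfp516 and Klf11 lie below the vehicle points at every time, and those of Prdm16 above them.

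Among the coactivators, Ppargc1a (ENSMUSG00000029167, chromosome 5, 51454250 to 51567726) was lower with FGF6 at every time. Its values at 4 h were 4.64, 4.36 and 3.94 CPM with vehicle and 2.18, 2.01 and 1.42 CPM with FGF6, and it fell by 56.2% (log2 fold change -1.19 ± 0.14, adjusted p = 7.84e-08). At 8 h they were 4.77, 4.54 and 4.25 CPM against 1.86, 2.15 and 2.3 CPM (-1.11 ± 0.14, adjusted p = 1.17e-07). At 24 h Ppargc1a had risen in vehicle cells to 9.14, 8.71 and 9.04 CPM, while FGF6 cells held 3.1, 2.57 and 2.86 CPM (-1.65 ± 0.12, adjusted p = 7.98e-12). The increase in vehicle cells between 8 and 24 h was 1.98-fold (adjusted p = 1.12e-07). In FGF6 cells the same interval gave 1.36-fold (adjusted p = 0.014), a call lost without FGF6 8 h replicate 1 (log2 0.35, adjusted p = 0.0772) and without FGF6 24 h replicate 1 (log2 0.38, adjusted p = 0.0619). The effect of FGF6 at 24 h was lower than that at 8 h by -0.54 ± 0.19 (adjusted p = 0.0235). This difference was no longer past the threshold without Veh 8 h replicate 3 (-0.50, adjusted p = 0.0512), FGF6 8 h replicate 2 (-0.52, adjusted p = 0.0537), FGF6 8 h replicate 3 (-0.48, adjusted p = 0.0687) or FGF6 24 h replicate 2 (-0.47, adjusted p = 0.0637).

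Ppargc1b (ENSMUSG00000033871, chromosome 18, 61298136 to 61400431), which encodes the related coactivator PGC-1β, differed at the last time only among the 3 tested. With vehicle it stood at 8.5, 8.22 and 8.18 CPM at 4 h and with FGF6 at 8.62, 9.56 and 8.45 CPM, so that the groups overlapped (log2 fold change 0.10 ± 0.11, adjusted p = 0.445). At 8 h both groups were lower, at 5.11, 4.32 and 4.31 CPM with vehicle and 4.2, 4.67 and 4.52 CPM with FGF6, and again overlapped (-0.04 ± 0.13, adjusted p = 0.788). At 24 h vehicle cells held 4.41, 5.13 and 4.16 CPM and FGF6 cells 2.23, 2.75 and 1.61 CPM, and Ppargc1b fell by 52.1% (-1.06 ± 0.15, adjusted p = 4.76e-07). The effect at 24 h was lower than the one at 8 h by -1.02 ± 0.20 (adjusted p = 0.000132). Between 4 and 8 h Ppargc1b fell by 44.7% in vehicle cells (adjusted p = 1.58e-06) and by 49.8% in FGF6 cells (adjusted p = 1.55e-07). Between 8 and 24 h it fell by a further 50.6% in FGF6 cells (adjusted p = 1.68e-06), while vehicle cells differed by a log2 of 0.0036 ± 0.128 (adjusted p = 0.986).

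Prdm16 (ENSMUSG00000039410, chromosome 4, 154316125 to 154636873), which encodes a zinc finger coregulator of brown fat identity, was higher with FGF6 at all 3 times. At 4 h it measured 13.6, 14.8 and 13.4 CPM with vehicle and 18.3, 19.9 and 19.6 CPM with FGF6, 1.38-fold higher (adjusted p = 5.04e-06). At 8 h it measured 7.8, 9.09 and 9.35 CPM against 13.4, 12.3 and 12.3 CPM, 1.45-fold higher (adjusted p = 1.99e-06), and at 24 h 5.71, 6.09 and 6.26 CPM against 8.43, 8.89 and 9.91 CPM, 1.51-fold higher (adjusted p = 2.47e-06). The treated and untreated libraries did not overlap at any time. These effects did not differ past the threshold between 4 and 8 h (log2 0.08 ± 0.11, adjusted p = 0.663) or between 8 and 24 h (0.05 ± 0.12, adjusted p = 0.76). In both treatments Prdm16 declined with time. It fell by 37.4% from 4 to 8 h and by 31.1% from 8 to 24 h in vehicle cells (adjusted p = 1.48e-07 and 2.34e-05), and by 34.1% and 28.5% in FGF6 cells (adjusted p = 2.75e-07 and 1.48e-05). With FGF6 at 24 h its mean, 9.08 ± 0.758 CPM, was thus below that of vehicle cells at 4 h, 13.9 ± 0.749 CPM. Its exons share 109 bases with B230104I21Rik on the other strand.

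Ebf2 (ENSMUSG00000022053, chromosome 14, 67233292 to 67430918) encodes an early B cell factor family member that marks brown precursors. At 4 h its libraries held 44.6, 43.4 and 45.5 CPM with vehicle and 40.6, 41.5 and 43.5 CPM with FGF6, which overlapped (log2 fold change -0.09 ± 0.05, adjusted p = 0.107). With library sizes alone this value was -0.19 (adjusted p = 0.00104) and with upper-quartile factors -0.15 (adjusted p = 0.00892), settings under which the median of all genes lay lower as well, at -0.15 and -0.11 against -0.05. At 8 h vehicle cells held 46.5, 45.7 and 49.5 CPM and FGF6 cells 35.3, 31.6 and 33.4 CPM, and Ebf2 fell by 29.2% (adjusted p = 1.17e-09). At 24 h the values were 54.9, 53 and 56.5 CPM against 42.4, 40.6 and 43.2 CPM, a fall by 23.1% (adjusted p = 7.47e-08). The effect was lower at 8 h than at 4 h by -0.41 ± 0.07 (adjusted p = 4.6e-05). The 24 h minus 8 h difference, 0.12 ± 0.07, missed the threshold (adjusted p = 0.165). With library sizes alone this difference was 0.17 and passed it (adjusted p = 0.0351). The exons of Ebf2 share 424 bases with Gm10860 on the other strand.

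Zfp516 (ENSMUSG00000058881, chromosome 18, 82910663 to 83005314) encodes a zinc finger protein known to act on Ucp1 together with PRDM16. It stood at 64.7, 65 and 62.8 CPM with vehicle at 4 h and at 46, 48.5 and 44.9 CPM with FGF6, and fell by 27.5% (adjusted p = 3.37e-10). At 8 h the values were 58.1, 63 and 60.4 CPM against 40.2, 40 and 42.4 CPM, a fall by 32.6% (adjusted p = 5.89e-12). At 24 h they were 67, 68.3 and 66.8 CPM against 59.2, 60.2 and 59.5 CPM, a fall by 11.5% (adjusted p = 0.000374). The groups were apart at each time, but by less at the last one. The effect at 24 h lay above that at 8 h by 0.39 ± 0.06 (adjusted p = 4.77e-06), and between 8 and 24 h Zfp516 rose 1.46-fold in FGF6 cells (adjusted p = 2.74e-11) and 1.11-fold in vehicle cells (adjusted p = 0.00226).

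Klf11 (ENSMUSG00000020653, chromosome 12, 24651274 to 24662789), a Krüppel-like factor linked to PPARγ targets, was lower with FGF6 by a similar amount at each time. At 4 h it measured 10.8, 10.3 and 10.6 CPM with vehicle and 6.17, 5.74 and 6.66 CPM with FGF6, a fall by 41.7% (adjusted p = 6.05e-08). At 8 h the libraries held 12.2, 13.3 and 12.2 CPM against 7.29, 5.85 and 7.07 CPM, a fall by 46.4% (adjusted p = 1.76e-09). At 24 h they held 18.5, 19 and 21.9 CPM against 10.3, 10.9 and 11.2 CPM, a fall by 45.3% (adjusted p = 3.83e-10). No difference between the effects passed the threshold (8 h minus 4 h -0.12 ± 0.13, adjusted p = 0.536, and 24 h minus 8 h 0.03 ± 0.12, adjusted p = 0.865). Between 8 and 24 h Klf11 rose 1.57-fold in vehicle cells (adjusted p = 1.52e-07) and 1.6-fold in FGF6 cells (adjusted p = 5.22e-07). At 24 h the FGF6 cells reached 10.8 ± 0.427 CPM, against 10.6 ± 0.255 CPM in vehicle cells at 4 h, 2 groups of different treatment and time that were not tested against each other.

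Irf4 (ENSMUSG00000021356, chromosome 13, 30749226 to 30766976), an interferon regulatory factor that is induced by fasting in adipocytes and cooperates with PGC-1α, showed the widest change of the 10 genes apart from Ucp1. At 4 h it had 161, 217 and 203 counts with vehicle and 173, 200 and 144 with FGF6, and the groups overlapped (log2 fold change -0.0047 ± 0.126, adjusted p = 0.983). At 8 h it had 97, 101 and 67 counts against 35, 29 and 21, and fell by 65% (log2 fold change -1.51 ± 0.18, adjusted p = 6.75e-08). At 24 h vehicle libraries held 90, 109 and 87 counts and FGF6 libraries 2, 1 and 2. The ratio of vehicle to FGF6 at 24 h was 55.3, with an exact 95% counting interval of 23.4 to 171.6, and the adjusted p was 2.02e-14. The effect was lower at 8 h than at 4 h by -1.51 ± 0.22 (adjusted p = 1.24e-05), and lower at 24 h than at 8 h by -4.18 ± 0.45 (adjusted p = 3.14e-08). Irf4 also fell in vehicle cells between 4 and 8 h, by 54% (adjusted p = 2.82e-07), and then differed little (log2 0.23 ± 0.15, adjusted p = 0.218). The 3 libraries with the lowest Irf4 are the 3 with Ucp1 counts, all of the 1 group given FGF6 for 24 h. A relation of the 2 genes over libraries was not tested.

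**Figure D3:**
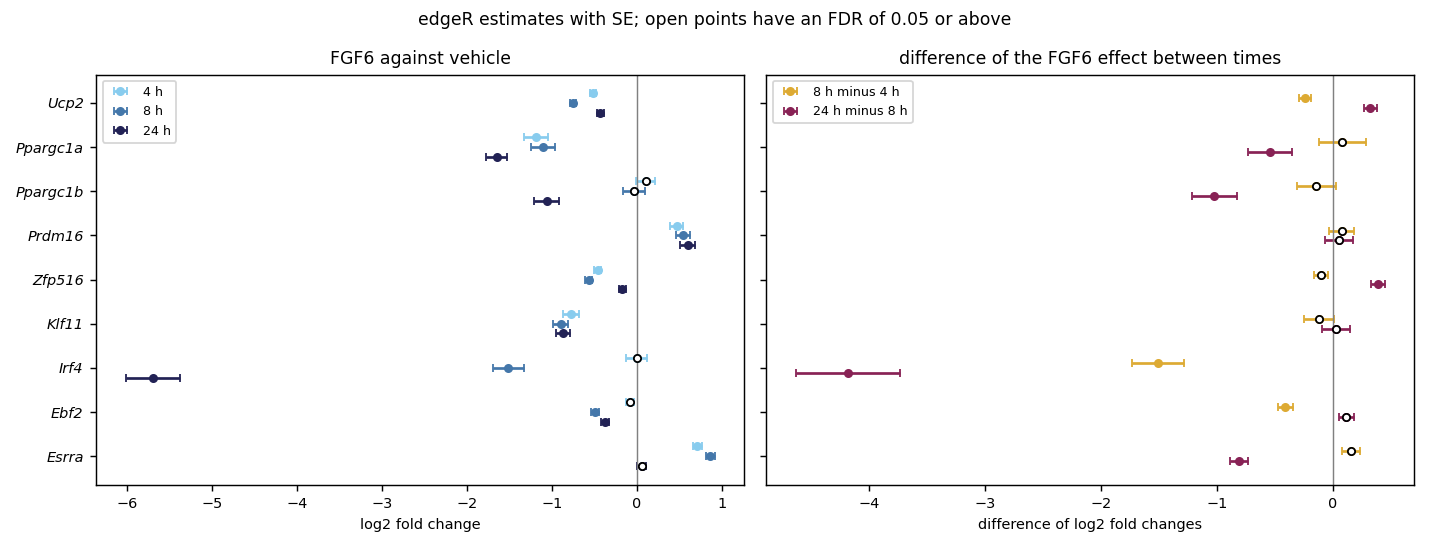
Left, log2 fold change of FGF6 against vehicle at 4, 8 and 24 h, and right, the difference of this effect between successive times, for the 9 genes other than Ucp1, with SE as bars and open points for an FDR of 0.05 or above. Irf4 moves from near 0 at 4 h to -5.70 at 24 h, and Esrra from 0.71 at 4 h to 0.05 at 24 h.

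Esrra (ENSMUSG00000024955, chromosome 19, 6910977 to 6921813) encodes ERRα, an orphan nuclear receptor that PGC-1 coactivators bind on genes of oxidative metabolism. At 4 h it stood at 36.9, 35.4 and 34.6 CPM with vehicle and at 59, 58.6 and 56.8 CPM with FGF6, 1.63-fold higher (log2 fold change 0.71 ± 0.05, adjusted p = 1.72e-11). At 8 h it stood at 28.2, 30 and 26.8 CPM against 52.8, 52 and 49.5 CPM, 1.82-fold higher (0.86 ± 0.06, adjusted p = 3.87e-13). At 24 h the values were 39.1, 35.6 and 33.6 CPM against 36.3, 36 and 40.2 CPM, which overlapped (0.05 ± 0.06, adjusted p = 0.404). Without Veh 24 h replicate 1 this last value was 0.15 (adjusted p = 0.0224). The effect at 24 h lay below that at 8 h by -0.81 ± 0.08 (adjusted p = 5.22e-09). Levels changed in both treatments, and from 8 to 24 h Esrra fell by 27.1% in FGF6 cells (adjusted p = 6.6e-08) and rose 1.28-fold in vehicle cells (adjusted p = 1.28e-05). Its exons share 91 bases with Mir6990 on the same strand and 73 with Trmt112 on the other.

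Read across the set, FGF6 raised Prdm16 and Esrra and lowered Ucp2, Ppargc1a, Zfp516 and Klf11 at 4 h, so that 2 of the 9 genes with counts were higher and 4 lower. Over all genes tested, 28.6% were called higher and 34.2% lower at that time, or 4308 against 5152 genes, a split that became 3242 against 6495 with library sizes alone. At 8 h Ebf2 and Irf4 joined the lower ones, giving 2 higher and 6 lower of 9, against 32.4% and 38.4% of all genes. At 24 h 2 of 10 were higher (Prdm16, and Ucp1 with the limit given above) and 7 lower, against 35.9% and 37.9% of all genes. Most genes of the table differed between FGF6 and vehicle at every time (62.8%, 70.8% and 73.8% called in either direction), and the share called in the set is to be read against that. The median log2 fold change of the set was -0.09, -0.57 and -0.41 at 4, 8 and 24 h, against -0.05, -0.05 and -0.02 over all genes tested. It was taken over 9 genes at 4 and 8 h and over 10 at 24 h, where Ucp1 entered with its fitted value, which is not given as a size. With Ucp1 left out, the middle value of the other 9 genes at 24 h was that of Ucp2, -0.43. The effect differed between 4 and 8 h for 3 of 9 genes (Ucp2, Irf4 and Ebf2), against 30.6% of all genes, and between 8 and 24 h for 6 of 9 (Ucp2, Ppargc1a, Ppargc1b, Zfp516, Irf4 and Esrra), against 45.1%. For Ucp1 neither difference could be fitted, because 3 or more of the groups had no counts.

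The genes also changed with time in culture alone. In vehicle cells 6 of 9 differed between 4 and 8 h, against 43.0% of all genes, with Ucp2 and Klf11 higher and Ppargc1b, Prdm16, Irf4 and Esrra lower. The rise of Klf11, 1.19-fold (adjusted p = 0.0174), was lost without Veh 4 h replicate 2 (log2 0.23, adjusted p = 0.0635) and without Veh 8 h replicate 2 (0.20, adjusted p = 0.0912), while Zfp516 (-0.08, adjusted p = 0.0958) reached -0.11 (adjusted p = 0.0425) without Veh 8 h replicate 2. Between 8 and 24 h 6 of 9 differed in vehicle cells, against 49.2% of all genes, with Ppargc1a, Zfp516, Klf11, Ebf2 and Esrra higher and Prdm16 lower. In FGF6 cells 7 of 9 differed between 4 and 8 h, against 48.2% of all genes called in either direction, and Ppargc1a and Klf11 were the others. All 7 were lower at 8 h, and the share of all genes that were lower was not counted. The smallest of these falls, of Ucp2 by 7.06% (adjusted p = 0.0262), was lost without FGF6 4 h replicate 1 (log2 -0.09, adjusted p = 0.0968), FGF6 4 h replicate 2 (-0.10, adjusted p = 0.0668) or FGF6 8 h replicate 3 (-0.06, adjusted p = 0.246). Between 8 and 24 h the 9 genes other than Ucp1 differed in FGF6 cells, against 62.3% of all genes, with Ucp2, Ppargc1a, Zfp516, Klf11 and Ebf2 higher and Ppargc1b, Prdm16, Irf4 and Esrra lower, the call of Ppargc1a being lost without either of the 2 libraries named above. Ucp1 was called higher as well, with the limit that the filter on low counts set in part which groups it could differ in. These comparisons share libraries with those of FGF6 against vehicle, and are not independent of them.

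To set the genes beside each other, CPM was divided by the length of the exon union. In vehicle cells at 4 h Ucp2 had the highest level, 33.9 ± 1.34 CPM per kb, followed by Esrra (8.13 ± 0.267), Zfp516 (7.75 ± 0.145) and Ebf2 (6.43 ± 0.155). Lower down came Klf11 (2.44 ± 0.0588), Ppargc1b (2.08 ± 0.0432), Prdm16 (1.5 ± 0.0803), Irf4 (1.27 ± 0.179), Ppargc1a (0.654 ± 0.0533) and Ucp1 at 0, and at this time no neighbours in the order overlapped. In vehicle cells at 8 h Zfp516, Ebf2 and Esrra overlapped in turn, as did Ppargc1a with Irf4, and at 24 h Esrra, Zfp516 and Ebf2 overlapped in turn, as did Irf4 with Prdm16. With FGF6, Ppargc1b overlapped Prdm16 at 4 h, and at 8 h Zfp516 overlapped Ebf2 and Klf11 overlapped Prdm16. Ucp2 stayed first and Esrra second with FGF6 at all 3 times, at 23.7 and 13.2 CPM per kb at 4 h. With FGF6 at 24 h Ucp1 reached 0.452 ± 0.0963 CPM per kb, a level that overlapped both Ppargc1b (0.551 ± 0.142) and Ppargc1a (0.432 ± 0.0402), and Irf4 was last at 0.0124 ± 0.00441. Dividing by the longest transcript instead put Ebf2 above Zfp516 in every group and Esrra second in vehicle cells at 8 h.

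**Figure D4:**
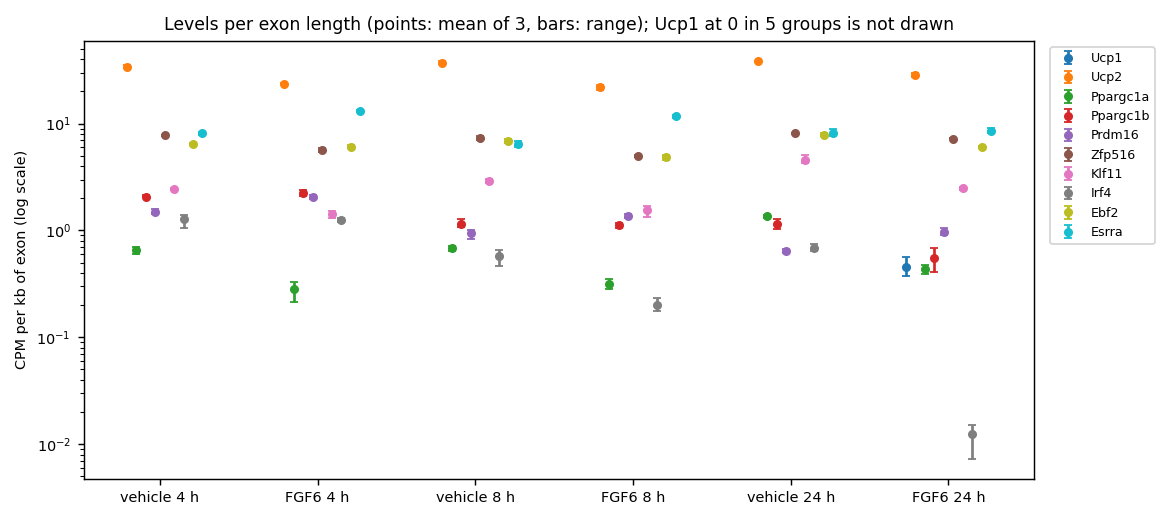
CPM per kb of exon on a log axis for each gene in the 6 groups, with points for the mean of 3 libraries and bars for their range. Ucp2 is highest in each group, and with FGF6 at 24 h Ucp1 lies at 0.452 CPM per kb beside Ppargc1a and Ppargc1b, with Irf4 lowest.

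The genes whose log2 CPM followed 3 of the members most closely were sought over all 18 libraries by Pearson's r, as a description, since the libraries share treatments and times. For Ucp1 they were Galnt1 (r = 0.983), Arl5a (0.967) and Tmsb4x (0.966). Galnt1 stood at 231 CPM with FGF6 at 24 h and between 110 and 123 CPM in the other 5 groups. Because Ucp1 is at 0 in 15 libraries, this likeness describes a step in 1 group. For Ppargc1a the closest were Pgpep1 (r = 0.980), Mvk (0.978), which encodes mevalonate kinase, and Lipe (0.977), which encodes hormone-sensitive lipase. For Esrra they were Dusp7 (r = 0.977), Tgfb1 (0.972) and Tbc1d10a (0.970), and Dusp7 held 57.6 and 92.2 CPM at 4 h with vehicle and FGF6 and 56.5 and 57.1 CPM at 24 h. With Spearman's rho, 0 of the 3 were the same for Ucp1, 1 of 3 for Ppargc1a (Mvk) and 0 of 3 for Esrra.

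The counts of related genes called in the 6 lists that follow are to be read against the shares of all genes called, 28.6% higher and 34.2% lower at 4 h, 32.4% and 38.4% at 8 h, and 35.9% and 37.9% at 24 h. Of 26 thermogenic and brown adipocyte effector genes 17 were tested, with 7 higher and 5 lower at 4 h, 5 and 5 at 8 h, and 6 and 8 at 24 h, and their median log2 fold change was 0.17, -0.14 and -0.40. Dio2, the deiodinase that makes active thyroid hormone in brown fat, had 0 counts in all 18 libraries, and Cidea, a lipid droplet protein, had no more than 1 in any. Pdk4, a kinase that restrains pyruvate oxidation, fell by 51.2% at 4 h, by 60% at 8 h and by 71.5% at 24 h (adjusted p = 1.25e-10, 8.25e-13 and 4.74e-15). Acot2, a mitochondrial thioesterase, fell from a vehicle level of 10.8 ± 0.0511 CPM to 4.1 ± 0.297 at 4 h, from 7.93 ± 1.36 to 3.6 ± 0.306 at 8 h, and from 10.1 ± 0.845 to 3.89 ± 0.492 at 24 h. Atp2a2, the SERCA2 calcium pump, rose 1.24-fold at 8 h (adjusted p = 7.7e-09) and 1.66-fold at 24 h (adjusted p = 4.35e-16). Eva1a rose from 0.203 ± 0.0643 to 2.19 ± 0.108 CPM at 4 h (adjusted p = 4e-09), and had 2 counts in all at 8 h with vehicle against 27 to 40 per library with FGF6. Elovl3, a fatty acid elongase, rose 3.89-fold at 4 h (adjusted p = 8.04e-06), from 0.325 ± 0.124 to 1.26 ± 0.247 CPM. Epsti1 was higher at 24 h (log2 fold change 0.83 ± 0.37, adjusted p = 0.0483), from 0.576 ± 0.185 to 1.04 ± 0.0604 CPM.

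**Figure D5:**
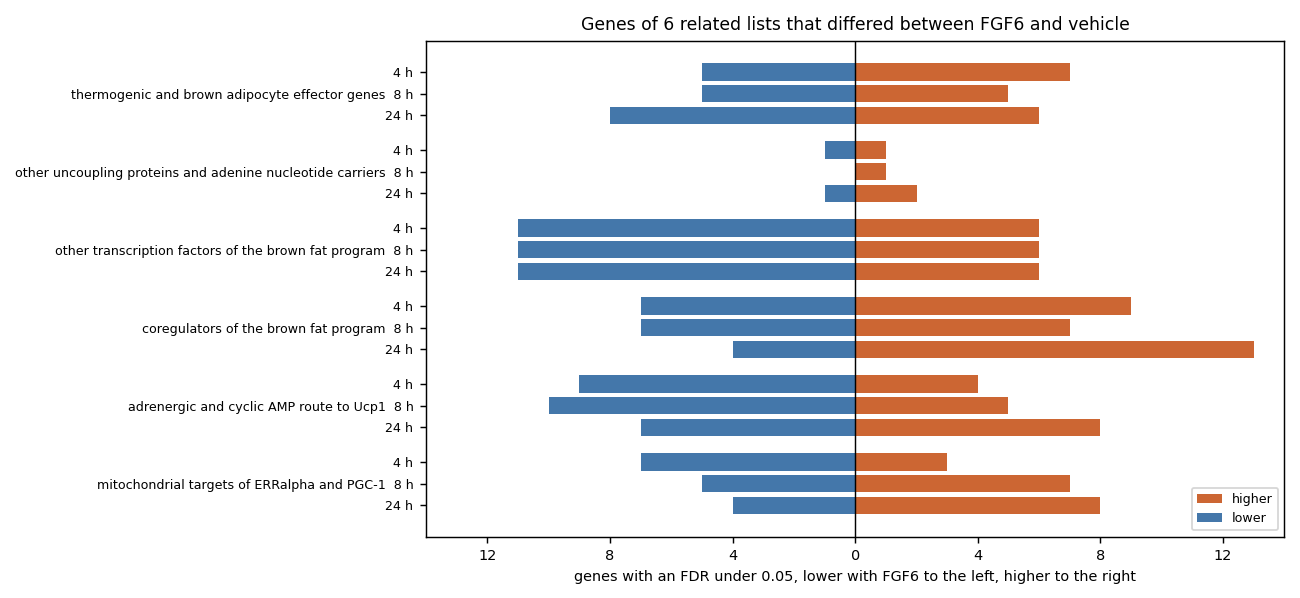
Number of genes called higher (right, orange) or lower (left, blue) with FGF6 at 4, 8 and 24 h in 6 lists of genes related to the set. The transcription factors have 6 higher and 11 lower at each time, and the coregulators go from 9 higher and 7 lower at 4 h to 13 higher and 4 lower at 24 h.

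Among other uncoupling proteins and adenine nucleotide carriers, 4 of 5 were tested, and Ucp3 did not exceed 5 counts in any library. With FGF6 1 was higher and 1 lower at 4 h, 1 and 0 at 8 h, and 2 and 1 at 24 h, with median log2 fold changes of -0.08, 0.0003 and 0.23. Slc25a5, which encodes the carrier ANT2, rose 1.29-fold at 4 h, 1.48-fold at 8 h and 1.98-fold at 24 h (adjusted p = 7.3e-10, 8.42e-14 and 7.19e-19). Slc25a4, which encodes ANT1, fell by 12.1% at 4 h (adjusted p = 7.2e-06) and by 6.32% at 24 h (adjusted p = 0.00675). Slc25a14, an uncoupling protein relative, rose 1.24-fold at 24 h (adjusted p = 0.00219).

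Other transcription factors of the brown fat program had 19 of 22 genes tested, with 6 higher and 11 lower at each of the 3 times and median log2 fold changes of -0.29, -0.43 and -0.46. Pparg, the nuclear receptor required for adipogenesis, fell by 49.3% at 4 h (adjusted p = 4.49e-15). Nfia, which binds with PPARγ in brown fat, fell by 55.2% at 4 h and by 66% at 8 h (adjusted p = 8.66e-13 and 4.39e-16). Zfp423, a repressor of the thermogenic program in white fat, fell by 67% at 8 h and by 92.7% at 24 h (adjusted p = 1.14e-09 and 7.87e-16), and Cebpa by 77.5% at 24 h (adjusted p = 1.94e-19). Foxc2, a forkhead factor of the vessel and fat lineages, rose 5.82-fold, 8.43-fold and 4.16-fold at the 3 times, from 30.6 to 178 CPM at 4 h. Twist1, a known brake on PGC-1α targets, rose 1.64-fold at 4 h and 1.87-fold at 8 h, and Cebpd rose 1.59-fold at 24 h (adjusted p = 5.36e-12, 2.82e-14 and 3.52e-07). Of the other 2 ERR genes, Esrrb did not exceed 2 counts and Esrrg 12 counts in any library.

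All 22 coregulators of the brown fat program were tested, with 9 higher and 7 lower at 4 h, 7 and 7 at 8 h, and 13 and 4 at 24 h, beside the 35.9% and 37.9% of all genes at that last time, and medians of 0.03, 0.06 and 0.13. Pprc1, the third member of the PGC-1 family, rose 1.65-fold at 8 h and 1.39-fold at 24 h (adjusted p = 2.45e-15 and 1.11e-11), in the direction opposite to Ppargc1a. Perm1, known as a regulator of oxidative genes in muscle, rose 1.71-fold at 4 h and Ncoa3 1.44-fold at 24 h (adjusted p = 3.13e-06 and 9.6e-10). Ncoa1, a nuclear receptor coactivator, fell by 45.1%, 48.7% and 45.6% at the 3 times, and Rb1 by 22.7%, 38.6% and 28.4%.

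In the adrenergic and cyclic AMP route to Ucp1, 18 of 19 genes were tested, and Adrb3, the receptor known from mature brown fat, did not exceed 2 counts in any library. At 4, 8 and 24 h 4, 5 and 8 genes were higher (28.6%, 32.4% and 35.9% of all genes) and 9, 10 and 7 lower (34.2%, 38.4% and 37.9% of all genes), with medians of -0.28, -0.20 and 0.04. The cyclic AMP phosphodiesterases Pde4b (at 4 h) and Pde4d (at 8 h) fell by 57.8% and 53.3%, and the adenylyl cyclase Adcy3 fell by 56.4% at 24 h (adjusted p = 1.63e-14, 6.66e-14 and 6.41e-15). The p38 kinases' activators rose: Map2k3 by 2.14-fold at 4 h and 2.51-fold at 8 h, and Map2k6 by 2.08-fold, 2.52-fold and 4.37-fold at 4, 8 and 24 h. Crem, a cyclic AMP responsive factor, rose 2.99-fold at 24 h (adjusted p = 3.47e-13).

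All 15 mitochondrial targets of ERRα and PGC-1 were tested, with 3, 7 and 8 higher and 7, 5 and 4 lower at 4, 8 and 24 h, against 28.6%, 32.4% and 35.9% of all genes higher and 34.2%, 38.4% and 37.9% lower, and medians of -0.08, 0.05 and 0.18. Acadm, the medium-chain acyl-CoA dehydrogenase, fell by 58.9%, 58.5% and 68.9%, from 72.8 to 29.9 CPM at 4 h. Sdhb, a subunit of complex II, fell by 19.1% at 4 h and 15.8% at 8 h, and Mfn2, a mitochondrial fusion protein, by 21.5% at 24 h (adjusted p = 1.13e-07, 1.67e-06 and 2.56e-08). Idh3a, a subunit of isocitrate dehydrogenase, rose 1.14-fold, 1.46-fold and 1.8-fold at the 3 times, and Uqcrfs1 of complex III 1.13-fold at 4 h (adjusted p = 0.000252). Cycs, cytochrome c, rose 1.38-fold at 8 h and 1.83-fold at 24 h (adjusted p = 0.0118 and 5.14e-05), and has processed copies elsewhere in the genome that could take some of its reads.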

How the data were processed

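RNA-seq libraries of immortalized mouse brown preadipocytes given vehicle or FGF6 for 4, 8 or 24 h were analysed, 18 in all, 3 per group by their titles. The authors used STAR for alignment to GRCm38.p4 and featureCounts of Subread with a GENCODE annotation for counting, and deposited raw counts per gene. Versions, annotation release, strand setting and the treatment of multi-mapping reads are not given in the sources used here. Identifiers were matched to GENCODE M21 (98.5% found). No column of per-sample values was left unmapped. Libraries held 24327816 to 33471980 counts.

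From the counts, edgeR 4.0.16 in R 4.3.3 kept 15071 of 48023 genes with filterByExpr, computed TMM factors (0.951 to 1.05) and estimated 6 group means in a quasi-likelihood fit of all 18 libraries, with no covariates. Adjusted p is the Benjamini-Hochberg FDR over all genes tested, called under 0.05, and the SE of a log2 fold change was back-calculated from the F statistic. The study used limma with voom and an FDR under 0.25, which were run as alternatives. The smallest p of an exact permutation test of 3 against 3 is 0.1. Floors of 3 counts per library and 95% intervals cover counting error only. A contrast whose groups had no counts was given no value.

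The 10 genes and the lists were chosen with earlier results of these data known. List genes named are, per list and time, up to 2 increases and 2 decreases of largest size among those called, with a mean of at least 1 CPM in either group. Some genes that this rule names are not reported here. For Ucp1, Ppargc1a and Esrra the 3 genes with the highest Pearson r of log2 CPM (prior count 2) are named. Genes of the lists with too few counts to test were named after their values were seen. Promoters are RefSeq sequence of GRCm38.p6. The steps were tested on simulated counts in which 200 of 15071 genes were changed, in the FGF6 24 h group only. In the data 73.8% of genes were called at that time, so the simulation cannot show how the scaling behaves there. Alternatives were limma 3.58.1, DESeq2 1.42.0, other scalings, filters, thresholds and sample sets, a replicate block, and leaving out each library.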

Additional observations from a re-analysis of the deposited data

Results flagged for a closer look

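For 7 of the genes the effect of FGF6 differed between successive times by a test of the difference itself, edgeR's quasi-likelihood test of the interaction with Benjamini-Hochberg adjustment. That test called 3 of 9 from 4 to 8 h, against 30.6% of all genes tested, and 6 of 9 from 8 to 24 h, against 45.1%. From 4 to 8 h the log2 effect moved by -0.24 for Ucp2, by -1.51 for Irf4 and by -0.41 for Ebf2. From 8 to 24 h it moved by 0.32 for Ucp2, by -0.54 for Ppargc1a, by -1.02 for Ppargc1b, by 0.39 for Zfp516, by -4.18 for Irf4 and by -0.81 for Esrra. Of these, Ucp2 moved down and then back up, while Irf4 moved down in both steps. The difference of Ppargc1a lost its call without any of 4 single libraries.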

How the results depend on the processing

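With limma, DESeq2, upper-quartile factors, library sizes alone, no filter, only the libraries of the times compared or the replicate block, the counts of the 10 genes called in FGF6 against vehicle, in each direction and at each time, stayed within 1.5 times those reported, as they did when any single library was left out. Requiring at least 10 counts in every library removed Ucp1 and Irf4, and left 1 gene higher at 24 h. With an FDR under 0.25, 5 genes differed in effect between 4 and 8 h, a difference for which all genes were not counted at that threshold. An FDR under 0.05 and a change of at least 2-fold were also required together. This left 0, 0 and 1 of the genes higher and 1, 2 and 3 lower at 4, 8 and 24 h. The 1 higher at 24 h was Ucp1, with the limits of filter and prior count given above. The same requirement left 748, 1114 and 1122 of all genes higher and 962, 1645 and 2309 lower, and 6, 5 and 6 genes of the 6 lists higher and 9, 11 and 16 lower. Of the 10 genes, 1 met this requirement for the 8 h minus 4 h difference of effects and 2 for the 24 h minus 8 h difference. For change with time, the earlier and later steps gave 1 and 0 in vehicle cells, and 1 and 3 in FGF6 cells. Of these last 3, 1 was Ucp1, with the same limits of filter and prior count. All genes were not counted under this requirement for differences of effect or change with time. Whether these numbers lie above or below the share of all genes is therefore not known. The signs that turned belonged to values near 0 that had missed the threshold. Irf4 at 4 h was 0.0069 with limma, 0.0187 with DESeq2, 0.0030 without a filter and 0.0326 with only the libraries of that time, and -0.117 to 0.0594 with single libraries left out. Ppargc1b was -0.0015 at 4 h with library sizes alone, and -0.0818 to 0.0468 at 8 h without single libraries. From 8 to 24 h in vehicle cells Ppargc1b was -0.0732 with library sizes alone, -0.0298 with upper-quartile factors, -0.0228 without a filter, -0.0041 with 10 counts in every library, -0.0023 with the replicate block, and -0.0954 to 0.0898 without single libraries, and Ucp2 was -0.0350 with library sizes alone. The difference of effects between 8 and 24 h was -0.0009 for Klf11 with 10 counts in every library and -0.0662 to 0.102 without single libraries, and -0.0146 to 0.130 for Prdm16. Between 4 and 8 h it was -0.0023 to 0.125 for Prdm16 and -0.0494 to 0.214 for Ppargc1a without single libraries. Calls over time were lost for Zfp516 from 8 to 24 h in vehicle cells (0.0787) and for Ucp2 and Esrra from 4 to 8 h in FGF6 cells (-0.0438 and -0.114) with library sizes alone, for Ucp2 (-0.0844) with upper-quartile factors, and for Ppargc1a from 8 to 24 h in FGF6 cells (0.400) without a filter. The cause of these changes was not tested. Same-numbered libraries did not deviate together (correlations of -0.0406 to 0.1), and the replicate block changed no call of the genes, with 2 higher and 7 lower at 24 h. Depth limits Ucp1 in the 15 libraries at 0 and Irf4 with FGF6 at 24 h.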
